A study of Mus musculus with 9 samples.

Results

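The genes described here encode the core of the basement membrane: the laminin chains Lama1, Lama5, Lamb1, Lamb2 and Lamc1, the collagen IV chains Col4a1 and Col4a2, the nidogens Nid1 and Nid2, and the matrix glycoprotein Sparc. They were taken by name, 10 of the 15526 genes in the authors' table, by their place in the basement membrane. Their levels were compared in poly-A RNA of mouse ES cells between the Kif2a knockout line KO1, the Kif2a knockout line KO2 and wild-type cells (WT), with 3 libraries in each of the 3 groups. All 9 samples carry the entry 129 in the labels and were given no treatment. The 2 knockout lines were edited separately, and each is 1 clone, so that an effect of the deletion and a feature of the clone cannot be told apart within a line. Kif2a encodes a kinesin that takes subunits off microtubule ends.

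A basement membrane is a thin sheet of matrix on which epithelia rest. Laminins are trimers of an alpha, a beta and a gamma chain, and the gamma1 chain encoded by Lamc1 is shared by most of them. Laminin trimers polymerise at the cell surface, collagen IV forms a second network of trimers of its chains, and nidogens bind both. In the early mouse embryo and in ES cell aggregates the primitive endoderm and its derivatives make large amounts of these proteins, and ES cells grown as colonies make laminins too. In bulk RNA, fewer cells of a type and less RNA per cell cannot be told apart.

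The knockout lines differed from WT cells in some of these genes and not in others. The laminin genes Lama1 and Lamb1 rose in both lines. In KO2, the genes Lamb2, Col4a2, Nid1 and Nid2 were called higher as well. Col4a2 and Nid2 also differed between the lines, while Lamb2 and Nid1 were not shown to. The call of Lamb2 in KO2 was lost without WT replicate 2. Lama5 was not called on the values as deposited, but was called lower in KO2 after other scalings. The most abundant chain gene, Lamc1, stayed within a narrow interval around no change in both lines, and so did Sparc. The changes were small, between 1.11-fold and 1.40-fold where they passed the test on the values as deposited.

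Levels are the authors' normalised read counts per gene and library. Changes are log2 fold changes ± SE on the log2(value + 1) scale from limma, with Benjamini-Hochberg adjusted p-values over the 10238 genes whose mean value was 10 or more, and a gene was called at an adjusted p under 0.05. The labels do not say whether the libraries of 1 group came from separate cultures, so the p-values speak of the spread among these libraries and of nothing wider. The libraries held 14960295 to 18814858 reads, and the 10 genes took 0.402 to 0.406% of the reads in KO1, 0.405 to 0.421% in KO2 and 0.389 to 0.407% in WT. Kif2a itself had normalised read counts of 0.886, 1.16 and 0.957 in KO1 and 1.06, 0.710 and 1.75 in KO2, against 109, 121 and 113 in WT, as the labels say. WT replicate 2 had been scaled by the authors with a factor 1.03 times the one that the median ratio gives. That library was the lowest of the 3 WT libraries for 9 of the 10 genes and for 47.3% of all tested genes, and its part in the results was not tested beyond the values without it.

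Where the genes start is shown first for Col4a1 and Col4a2, because they lie head to head on chromosome 8. Of this pair, only Col4a2 was called against WT, and only in KO2. The RefSeq start sites (GRCm38.p6) stand 21 bases apart on opposite strands, so the windows of 250 bases before to 50 bases after each start share 78 bases. Each window is given 5′ to 3′ on the strand of its gene, and capitals mark the shared stretch. Of the shared stretch, 73.1% is G or C, against 53.8% over all 32851 windows in the table. Col4a1 is at chr8:11312777-11313076 on the minus strand and Col4a2 at chr8:11312555-11312854 on the plus strand.
Col4a1: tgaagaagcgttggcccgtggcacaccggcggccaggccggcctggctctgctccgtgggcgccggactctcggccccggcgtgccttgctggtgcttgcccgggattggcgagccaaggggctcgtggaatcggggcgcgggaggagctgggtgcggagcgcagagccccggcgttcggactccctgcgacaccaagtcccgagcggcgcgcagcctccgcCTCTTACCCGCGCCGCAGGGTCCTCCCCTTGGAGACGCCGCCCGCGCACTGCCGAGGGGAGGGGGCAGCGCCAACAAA
Col4a2: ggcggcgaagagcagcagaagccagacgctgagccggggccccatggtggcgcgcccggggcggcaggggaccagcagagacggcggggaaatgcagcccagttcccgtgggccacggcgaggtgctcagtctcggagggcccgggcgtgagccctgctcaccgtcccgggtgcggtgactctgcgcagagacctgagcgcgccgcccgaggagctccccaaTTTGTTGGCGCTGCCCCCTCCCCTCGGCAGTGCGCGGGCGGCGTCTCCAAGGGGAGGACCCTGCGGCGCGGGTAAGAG

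Lamb1 is shown because it had the largest change of the laminin genes. Its window is chr12:31265043-31265342 on the plus strand, and capitals mark its 2 matches to the letters GGGCGG of the GC box, both on the opposite strand.
Lamb1: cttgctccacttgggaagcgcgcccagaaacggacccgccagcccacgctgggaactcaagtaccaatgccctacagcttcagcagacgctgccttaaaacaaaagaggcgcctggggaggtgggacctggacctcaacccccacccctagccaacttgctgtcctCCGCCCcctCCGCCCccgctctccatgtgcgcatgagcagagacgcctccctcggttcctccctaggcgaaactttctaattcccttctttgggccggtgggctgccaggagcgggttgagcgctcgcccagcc

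Of the 10 genes, 7 had a window in the RefSeq table; Lama1, Lamc1 and Nid2 did not. Motifs were searched by their letters on both strands, and a match describes letters only. GGGCGG was found in 35.7% of all windows, 4 times in that of Lama5, 3 times in that of Col4a2, once each for Col4a1 and Nid1, and not for Lamb2 or Sparc. The letters CCAAT were in 37.4% of all windows and once each in those of Lamb1, Col4a1, Col4a2 and Nid1. CCCTNCCCC was in 9.5% of all windows and once each in those of Lama5 and Nid1. TATAAA, found in 13.6% of all windows, and AGATAA, found in 11.2%, were in 0 of the 7.

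Lama1 encodes the laminin alpha1 chain of the first embryonic basement membranes (ENSMUSG00000032796, chromosome 17, 67697259 to 67822647, plus strand, GRCm38). Its normalised read counts were 319.7, 321 and 314 in KO1 and 328, 299 and 311 in KO2, against 277, 254 and 269 in WT. All 6 knockout libraries stood above all 3 WT libraries. The log2 fold change was 0.25 ± 0.05 in KO1 against WT (adjusted p = 5.81e-04) and 0.23 ± 0.05 in KO2 against WT (adjusted p = 2.78e-04), or 19.3% and 17.2% higher. The lines did not differ detectably from each other, with a log2 difference of KO2 over KO1 of −0.03 ± 0.05 (adjusted p = 0.792, 95% interval −0.12 to 0.07).

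Lama5 encodes the laminin alpha5 chain, which ES cells make too and which is widespread in later tissues (ENSMUSG00000015647, chromosome 2, 180176373 to 180225859, minus strand). It had 1093, 1056 and 1096 in KO1 and 1045, 1064 and 972 in KO2, against 1148, 1012 and 1158 in WT. The groups overlapped, since WT replicate 2 lay below 5 of the 6 knockout libraries. The log2 fold change was −0.03 ± 0.04 in KO1 (adjusted p = 0.843) and −0.10 ± 0.04 in KO2 (adjusted p = 0.0718), and neither passed the test. This result depends on WT replicate 2 and on the scaling. Without WT replicate 2, Lama5 was called lower in KO2 at −0.17 (adjusted p = 0.00263). It was also called lower in KO2 with quantile normalisation (−0.12, adjusted p = 0.0313), with median-ratio scaling (−0.13, adjusted p = 0.0168), and without KO2 replicate 2 (−0.13, adjusted p = 0.0469). On the recovered reads, the calls were −0.12 with edgeR (adjusted p = 0.0238) and −0.12 with DESeq2 (adjusted p = 0.0499).

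Lamb1 encodes the beta1 chain, the beta chain of the early embryonic laminins (ENSMUSG00000002900, chromosome 12, 31265234 to 31329644, plus strand). Its values were 118, 122 and 129 in KO1 and 111, 114 and 116 in KO2, against 98.6, 81.8 and 95.6 in WT. All knockout libraries were above all WT libraries, and every KO2 library was below every KO1 library. The change was the largest of the laminins, 0.42 ± 0.07 in KO1 (adjusted p = 3.14e-05) and 0.31 ± 0.07 in KO2 (adjusted p = 4.80e-04), or 33.6% and 23.8% higher. The difference of KO2 over KO1, −0.11 ± 0.07, did not pass the test (adjusted p = 0.303).

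Lamb2 encodes the beta2 chain, known from the basement membranes of kidney and of the neuromuscular junction (ENSMUSG00000052911, chromosome 9, 108479736 to 108490530, plus strand). It had 291, 293 and 288 in KO1 and 312, 319 and 297 in KO2, against 288, 243 and 277 in WT. All 6 knockout libraries stood above the WT libraries, though KO1 replicate 3 and WT replicate 1 were nearly level. The gene was called higher in KO2 at 0.20 ± 0.05 (adjusted p = 0.00243) and not in KO1 at 0.11 ± 0.05 (adjusted p = 0.304). The call in KO2 was lost without WT replicate 2, where the change was 0.13 (adjusted p = 0.0611). KO2 and KO1 were not shown to differ, at 0.09 ± 0.05 for KO2 over KO1 (adjusted p = 0.271).

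Lamc1 encodes the gamma1 chain that the alpha and beta chains above share (ENSMUSG00000026478, chromosome 1, 153218922 to 153332786, minus strand). It had 2399, 2408 and 2509 in KO1 and 2519.6, 2418 and 2451 in KO2, against 2485, 2346 and 2522 in WT. The 3 groups covered the same range. The log2 fold change was −0.01 ± 0.04 in KO1 (adjusted p = 0.961), with a 95% interval of −0.08 to 0.06, and 0.01 ± 0.04 in KO2 (adjusted p = 0.912), with an interval of −0.06 to 0.08. Both upper ends lie below the lower ends of the intervals of Lama1, 0.16 in KO1 and 0.14 in KO2.

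**Figure D1:**
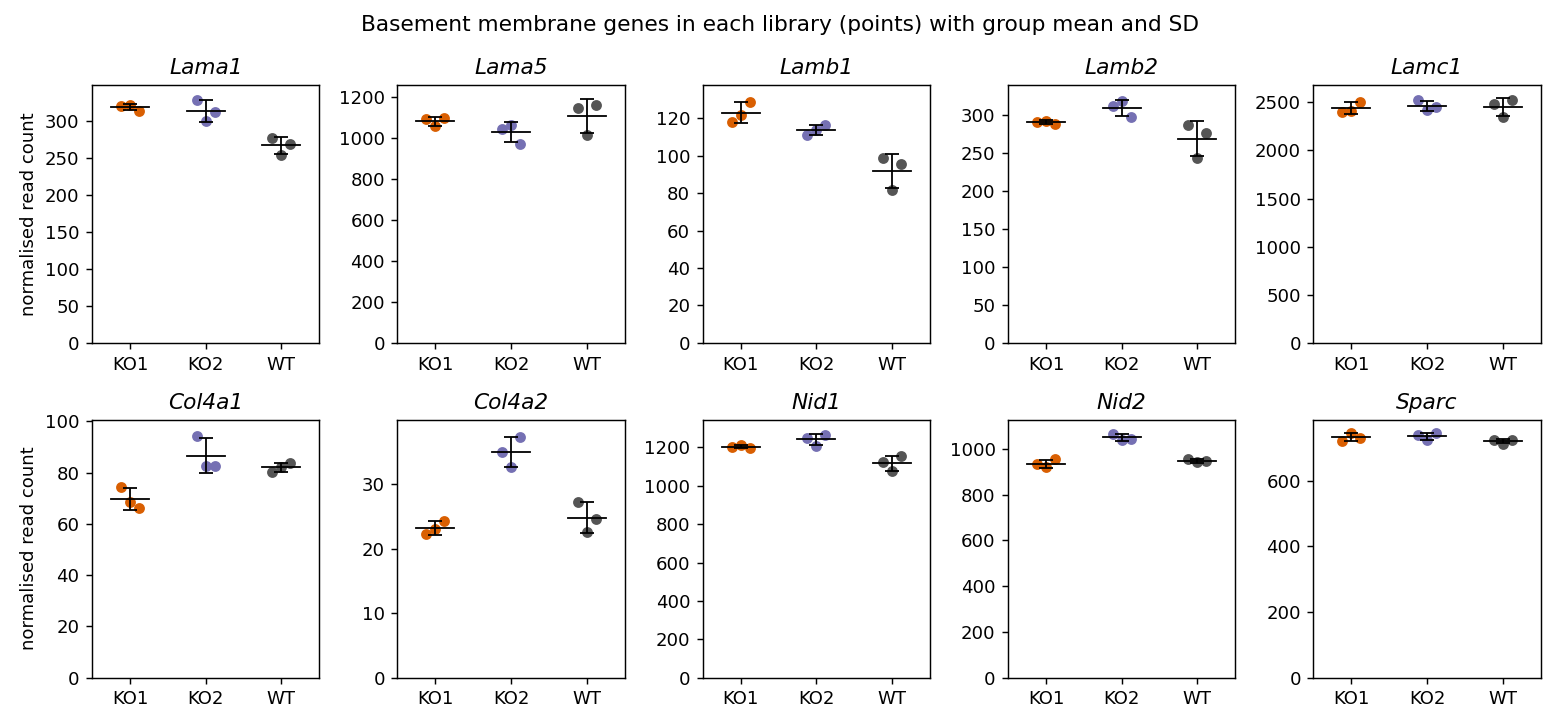
Normalised read count of each of the 10 genes (y axis, from 0) in every library of KO1, KO2 and WT (points), with the group mean and SD (lines, n = 3). The knockout points of Lama1, Lamb1, Lamb2 and Nid1 all lie above the WT points, those of Col4a2 and Nid2 only in KO2, and Lamc1 and Sparc stay level.

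Col4a1 and Col4a2 encode the alpha1 and alpha2 chains, which assemble together into the collagen IV trimer found in nearly all basement membranes. Col4a1 (ENSMUSG00000031502, chromosome 8, 11198423 to 11312826, minus strand) had 74.5, 68.6 and 66.3 in KO1 and 94.4, 82.7 and 82.4 in KO2, against 80.3, 82.1 and 83.7 in WT. All 3 KO1 libraries were below WT, while KO2 overlapped WT. The change in KO1 was −0.23 ± 0.07 and was not called (adjusted p = 0.105, and 0.060 to 0.305 over the alternatives). In KO2 it was 0.07 ± 0.07 (adjusted p = 0.506).

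Col4a2 (ENSMUSG00000031503, chromosome 8, 11312805 to 11449287, plus strand) had 22.2, 23.1 and 24.3 in KO1 and 35.0, 32.65 and 37.3 in KO2, against 27.2, 22.6 and 24.6 in WT. KO2 stood above both other groups without overlap, and KO1 lay within the WT range or just below it. The change was 0.48 ± 0.10 in KO2 (adjusted p = 6.65e-04), or 39.6% higher, and −0.09 ± 0.10 in KO1 (adjusted p = 0.805). With 194 reads in its lowest library, Col4a2 was the least deeply covered of the 10 genes.

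Between the lines, both collagen IV genes were higher in KO2 than in KO1. The difference was 0.30 ± 0.07 for Col4a1 (adjusted p = 0.00267) and 0.57 ± 0.10 for Col4a2 (adjusted p = 1.46e-04). The plot of changes shows the pair apart: in KO2 the interval of Col4a2 begins at 0.27, above the 0.21 at which that of Col4a1 ends. The exons of the pair overlap by 22 bases at their starts. Whether the authors counted reads by strand is not given in the sources used here.

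**Figure D2:**
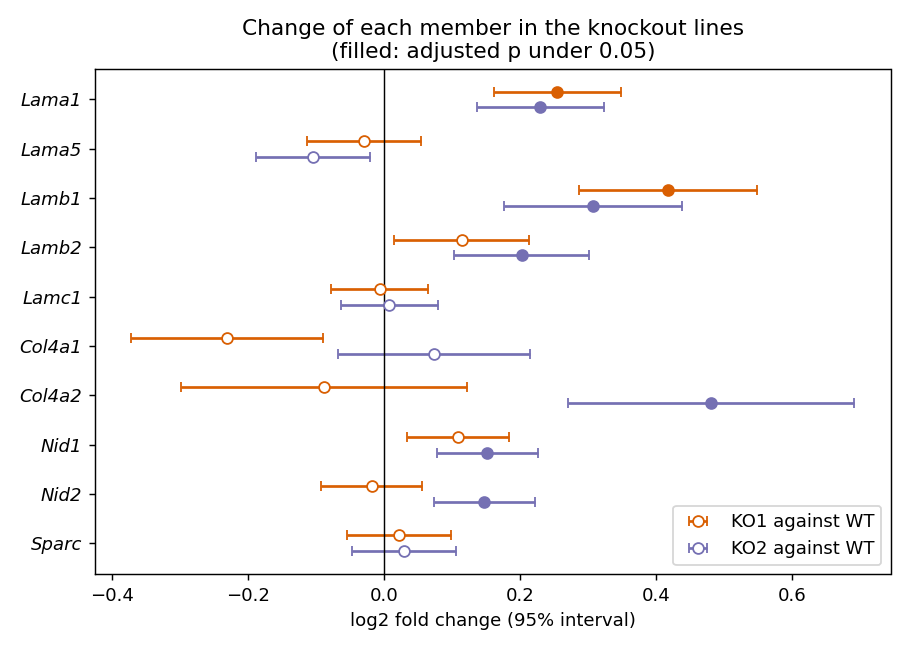
Log2 fold change of each gene in KO1 against WT and in KO2 against WT (x axis), with 95% intervals from limma; filled points have an adjusted p under 0.05. Lama1 and Lamb1 are filled in both lines, Lamb2, Col4a2, Nid1 and Nid2 in KO2, and the intervals of Lamc1 and Sparc straddle 0.

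Nid1 encodes nidogen-1, which ties the laminin gamma1 chain to collagen IV (ENSMUSG00000005397, chromosome 13, 13437551 to 13512269, plus strand). It had 1202, 1213 and 1199 in KO1 and 1251, 1209 and 1265 in KO2, against 1123, 1076 and 1155 in WT. All 6 knockout libraries were above WT. The gene was called in KO2 at 0.15 ± 0.04 (adjusted p = 0.00246), or 11.1% higher, and not in KO1 at 0.11 ± 0.04 (adjusted p = 0.160). KO2 over KO1 was 0.04 ± 0.04 (adjusted p = 0.503), so the lines were not shown to differ.

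Nid2 encodes nidogen-2, the second nidogen (ENSMUSG00000021806, chromosome 14, 19751265 to 19811787, plus strand). It had 932, 920.1 and 954 in KO1 and 1066, 1039.7 and 1042 in KO2, against 957, 941 and 945 in WT. KO2 was above both other groups, which overlapped. The change was 0.15 ± 0.04 in KO2 (adjusted p = 0.00318) and −0.02 ± 0.04 in KO1 (adjusted p = 0.899). Here the lines differed, by 0.17 ± 0.04 for KO2 over KO1 (adjusted p = 0.00187). Its exons overlap those of Rtraf by 437 bases on the opposite strand, and Rtraf was not called in KO2 at 0.00 ± 0.05 (adjusted p = 0.966).

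Sparc encodes a secreted glycoprotein that binds collagen IV (ENSMUSG00000018593, chromosome 11, 55394500 to 55423183, minus strand). It had 723, 746 and 729 in KO1 and 740.0, 725 and 745 in KO2, against 726, 714 and 726 in WT. The groups overlapped. The change was 0.02 ± 0.04 in KO1 (adjusted p = 0.879, 95% interval −0.05 to 0.10) and 0.03 ± 0.04 in KO2 (adjusted p = 0.638, interval −0.05 to 0.11).

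All 10 genes passed the filter on low values. In KO1 against WT, 2 of the 10 were called higher and 0 lower, where 1.06% of all tested genes were called, 0.830% higher and 0.234% lower. In KO2 against WT, 6 were called higher and 0 lower, where 18.5% of all tested genes were called, 11.0% higher and 7.51% lower. Both comparisons use the same WT libraries, and Lama1 and Lamb1 were the 2 genes called in each. By library, 4 genes in KO1 stood wholly above WT (Lama1, Lamb1, Lamb2 and Nid1) and 1 wholly below (Col4a1), as did 13.0% and 5.20% of all tested genes. In KO2 6 stood wholly above WT and 0 below, as did 18.7% and 13.5% of all tested genes. The median log2 fold change of the 10 genes was 0.01 in KO1 and 0.15 in KO2, and that of all tested genes was 0.02 in both.

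For the mean of KO1 and KO2 against WT, 4 of the 10 genes were called higher and 0 lower, where 9.09% of all tested genes were called, 6.16% higher and 2.93% lower. They were Lama1 at 0.24 ± 0.04 (adjusted p = 3.43e-05), Lamb1 at 0.36 ± 0.06 (adjusted p = 1.04e-05), Lamb2 at 0.16 ± 0.04 (adjusted p = 0.0119) and Nid1 at 0.13 ± 0.03 (adjusted p = 0.00524). The same 4 genes had all 6 knockout libraries above all WT libraries, as did 6.37% of all tested genes, and 0 of the 10 had all 6 below, as did 2.70%. Without WT replicate 2 the calls of Lamb2 (0.09, adjusted p = 0.260) and Nid1 (0.10, adjusted p = 0.0575) were lost, and Lama5 was called lower (−0.13, adjusted p = 0.0210). The split of all calls between higher and lower moved with the scaling: it was 631 to 300 as deposited and 459 to 479 after median-ratio scaling. In KO1 it was 85 to 24 as deposited and 62 to 42 after median-ratio scaling, and in KO2 1123 to 769 as deposited and 895 to 1023. Each of the calls among the 10 genes was also made after median-ratio scaling, and Lama5 in KO2 was the 1 call that this scaling added among them.

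For KO2 against KO1, Col4a1, Col4a2 and Nid2 were called higher and 0 of the 10 lower, where 9.92% of all tested genes were called, 4.71% higher and 5.22% lower. By library, 4 genes stood wholly above KO1 (Lamb2, Col4a1, Col4a2 and Nid2) and 1 wholly below (Lamb1), as did 12.7% and 15.1% of all tested genes. The WT libraries enter this difference only through the shared estimate of the spread. The median over the 10 genes was 0.03, against −0.01 over all tested genes.

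Levels of different genes were compared per kilobase of the longest transcript that the annotation marks as principal. In order, normalised reads per kb were 319.9, 323 and 322 for Lamc1 and 319, 320.3 and 314 for Sparc in KO1, KO2 and WT. The nidogens followed, with 192, 215 and 194 for Nid2 and 198, 204 and 184 for Nid1. Lama5 had 94.98, 90.2 and 97.1, Lamb2 51.7, 54.9 and 47.8, Lama1 33.4, 32.8 and 28.0, and Lamb1 22.1, 20.5 and 16.6. The collagen IV genes came last, Col4a1 with 10.6, 13.1 and 12.4 and Col4a2 with 3.60, 5.42 and 3.85. Lamc1 and Sparc did not differ beyond their spread over libraries in any group, and Nid1 stood above Nid2 in KO1 and below it in KO2 and WT; per kb of all exons it was below Nid2 in each group (173 against 181 in KO1). The place of Sparc depends on the length used: per kb of all its exons it had 193 in KO1, 194 in KO2 and 191 in WT, far below Lamc1. By that length Col4a1 also stands above Lamb1 in KO2 and WT, and below it in KO1.

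**Figure D3:**
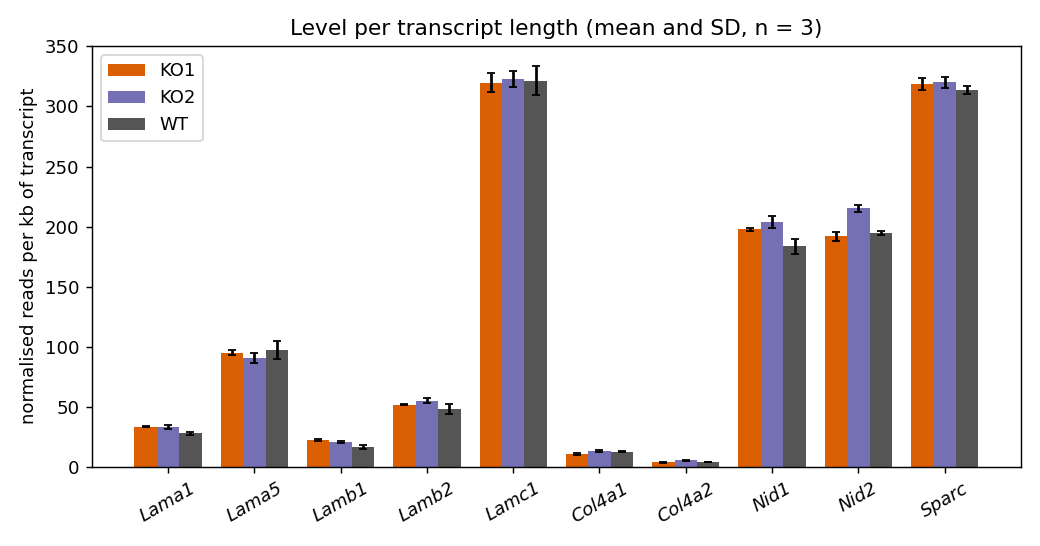
Normalised reads per kb of transcript (y axis, from 0) for the 10 genes in KO1, KO2 and WT; bars are means and lines SDs over 3 libraries. Lamc1 and Sparc stand near 320 in all groups, and the collagen IV genes are below 14.

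Summed per kb, the alpha chain genes had 128 ± 1.72 in KO1, 123 ± 4.37 in KO2 and 125 ± 8.28 in WT (SD, n = 3 each). The beta chain genes had 73.8 ± 0.712 in KO1 and 75.4 ± 1.65 in KO2, against 64.4 ± 5.71 in WT. The single gamma chain gene, Lamc1, thus stood above the alpha sum and the alpha sum above the beta sum in each group. These are RNA levels per length and give no protein amounts.

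The balance within a pair of chains was measured in each library, so that scaling between libraries drops out. The ratio of Lama1 to Lama5 per kb was 0.350, 0.363 and 0.342 in KO1 and 0.375, 0.336 and 0.383 in KO2, against 0.288, 0.300 and 0.278 in WT. Every knockout library was above every WT library. The log2 ratio was 0.31 higher over the 6 knockout libraries (exact two-sided permutation test, p = 0.0238, adjusted over 3 ratios 0.0357). That p is the smallest that the 84 assignments of libraries allow. The test treats the 6 knockout libraries as 1 group, although they come from 2 clones.

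Lamb1 to Lamb2 was 0.410, 0.422 and 0.453 in KO1 and 0.360, 0.362 and 0.397 in KO2, against 0.347, 0.340 and 0.350 in WT. Again every knockout library was above every WT library, and the log2 ratio was 0.20 higher in the knockout libraries (exact permutation test, p = 0.0238, adjusted 0.0357). Every KO1 library was also above every KO2 library, with mean log2 ratios of −1.24 in KO1, −1.43 in KO2 and −1.54 in WT. The 0.20 thus averages 2 clones with unlike ratios, and their difference in this ratio was not tested. The size of this ratio rests on the length used for Lamb1, 5557 bases of the principal transcript against 9917 bases of all exons, by which it averaged 0.259 in KO1 and 0.226 in KO2, against 0.209 in WT; its change between groups does not depend on length. Col4a1 to Col4a2 was 3.27, 2.89 and 2.66 in KO1 and 2.63, 2.47 and 2.15 in KO2, against 2.87, 3.55 and 3.31 in WT. Here KO1 and WT overlapped and KO2 lay below WT. The log2 ratio was −0.27 in the knockout libraries against WT, which did not pass (exact permutation test, p = 0.0714, adjusted 0.0714).

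**Figure D4:**
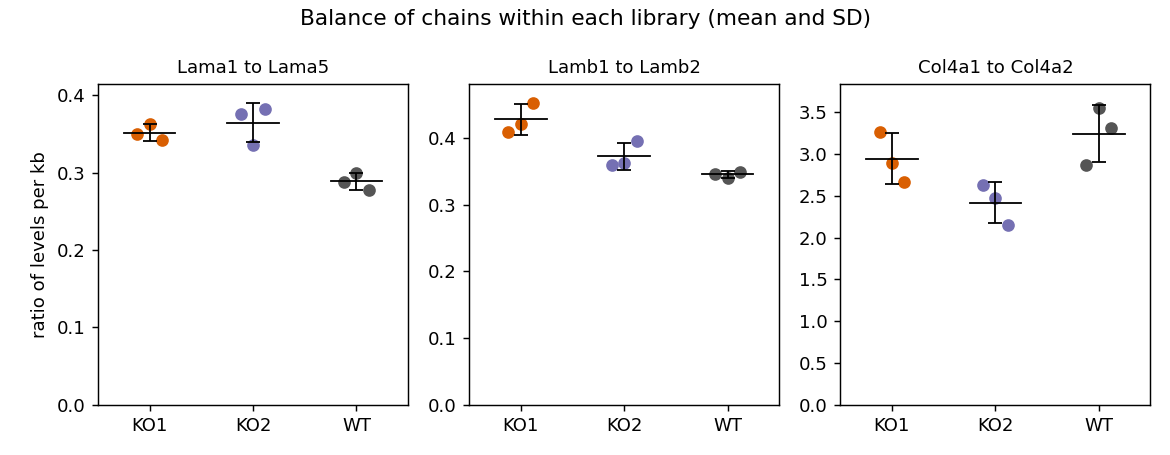
Ratio of levels per kb of 2 chain genes within each library (y axes, from 0) in KO1, KO2 and WT, with mean and SD (n = 3). For Lama1 to Lama5 and for Lamb1 to Lamb2 all knockout points lie above the WT points, and for Col4a1 to Col4a2 the KO2 points lie lowest.

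The 10 genes lie on 9 chromosomes, and only Col4a1 and Col4a2 are neighbours. Genes outside the list whose pattern over the 9 libraries was most like the mean centred pattern of Lama1, Lamb1 and Lamc1 were found by the root mean square difference, among 6447 genes whose mean value was 50 or more. The nearest were Cyb5a at 0.035, Ak4 at 0.038, Cecr2 at 0.040, Sipa1l2 at 0.040 and Fbh1 at 0.041 on the log2 scale, where the pattern itself spans 0.35. That mean joins Lama1 and Lamb1, which rose, to Lamc1, which was not called, so it need not match any of these genes alone.

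Among 28 other genes of basement membranes and their laminin or collagen chains, 19 are in the table and 9 were tested. In KO1, 0 of the 9 were called higher and 1 lower, and in KO2 2 higher and 2 lower. Of all tested genes, 0.830% were called higher and 0.234% lower in KO1, and 11.0% higher and 7.51% lower in KO2. Hspg2, which encodes perlecan, averaged 969 ± 68.1 in KO2, against 872 ± 71.6 in WT (0.15 ± 0.05, adjusted p = 0.0209), and Fbln1, a fibulin, 202 ± 14.7 against 180.4 ± 4.03 (0.16 ± 0.05, adjusted p = 0.0277; SD, n = 3 each). Lower in KO2 were Ntn1, a laminin-related netrin (−0.32 ± 0.07, adjusted p = 0.00107), and Smoc1, a relative of Sparc (−0.25 ± 0.08, adjusted p = 0.0147). The gene called lower in KO1 was Col18a1, whose collagen XVIII carries endostatin (−0.20 ± 0.05, adjusted p = 0.0127); as the only call there it is named after its values were seen. Leaving out 1 library ended the call of Col18a1 in KO1 (KO1 replicate 1, WT replicate 1 or WT replicate 3, adjusted p 0.0707 to 0.240), of Hspg2 (KO2 replicate 1, KO2 replicate 2 or WT replicate 2, 0.0673 to 0.202), of Fbln1 (KO2 replicates 1 and 2, WT replicates 1 and 3, 0.0591 to 0.152) and of Smoc1 (KO2 replicate 3 or WT replicate 1, 0.124 to 0.142). Fbln1 was also not called with median-ratio scaling (adjusted p = 0.0645) or DESeq2 (adjusted p = 0.0604).

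Of 15 receptors and partners that bind laminin or collagen IV, 13 were tested. In KO1 0 were called, and in KO2 3 were called higher and 1 lower. Over all tested genes, 1.06% were called in KO1, and 11.0% were called higher and 7.51% lower in KO2. Itga6, the integrin alpha6 subunit of laminin receptors, averaged 317 ± 10.3 in KO2 and 288 ± 5.21 in KO1, against 258 ± 3.93 in WT, and its change was 0.29 ± 0.05 in KO2 (adjusted p = 3.48e-06) and 0.16 ± 0.05 in KO1 (adjusted p = 0.0712). It was called in KO1 too when KO2 replicate 3 was left out of the shared fit (adjusted p = 0.0328) or when only KO1 and WT were fitted (adjusted p = 0.0469). Dag1, which encodes dystroglycan, a receptor for laminin alpha chains, changed by 0.23 ± 0.04 in KO2 (adjusted p = 4.71e-05), and the syndecan Sdc4 by 0.32 ± 0.05 (adjusted p = 1.49e-05). Ddr2, a collagen receptor kinase, was lower in KO2 (−0.21 ± 0.06, adjusted p = 0.00786), a call lost without KO2 replicate 2, WT replicate 2 or WT replicate 3 (adjusted p 0.0514 to 0.0770).

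Of 24 genes for folding and export of collagens, 18 were tested, with 0 called in KO1 and 6 higher and 1 lower in KO2. The shares over all tested genes were 1.06% called in KO1 and 11.0% higher and 7.51% lower in KO2. P4ha1 and P4ha2 encode catalytic subunits of prolyl 4-hydroxylase, which stabilises the collagen triple helix. P4ha1 averaged 196 ± 14.4 in KO2, against 147 ± 5.58 in WT (0.41 ± 0.06, adjusted p = 1.79e-07), and P4ha2 21.2 ± 3.36 against 14.7 ± 1.83 (0.50 ± 0.14, adjusted p = 0.00637; SD, n = 3 each). Plod1, a lysyl hydroxylase, changed by 0.29 ± 0.07 (adjusted p = 0.00167). Crtap, part of the prolyl 3-hydroxylase complex, was lower (−0.15 ± 0.05, adjusted p = 0.0379). The call of P4ha2 was lost without KO2 replicate 1 or WT replicate 3 (adjusted p 0.0668 to 0.0754), and that of Crtap without KO2 replicate 1, WT replicate 1 or WT replicate 3 (adjusted p 0.0981 to 0.211). Crtap was also not called with a replicate block (adjusted p = 0.0514), without the filter on low values (0.0533) or with only KO2 and WT in the fit (0.0564). P4ha1 averaged 168 ± 5.54 in KO1. It was called higher there when KO2 replicate 3 was left out of the shared fit (adjusted p = 0.0282) or when only KO1 and WT were fitted (adjusted p = 0.0389).

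Of 18 genes that remodel basement membranes, 9 were tested. In KO1 1 was called higher and 0 lower, and in KO2 2 higher and 1 lower. Among all tested genes, 0.830% were called higher and 0.234% lower in KO1, and 11.0% higher and 7.51% lower in KO2. The cathepsin B gene Ctsb had changes of 0.16 ± 0.04 in KO1 (adjusted p = 0.0292) and 0.15 ± 0.04 in KO2 (adjusted p = 0.00888). Mmp2, a gelatinase that cuts collagen IV, changed by 0.39 ± 0.14 in KO2 (adjusted p = 0.0452), and Mmp14, a membrane protease that activates it, by −0.31 ± 0.09 (adjusted p = 0.0122). Ctsl, a cathepsin, was not called in KO2 (0.09 ± 0.05, adjusted p = 0.162) but was without KO2 replicate 1 (0.14, adjusted p = 0.0460). The call of Ctsb in KO1 was lost without any 1 of the KO1 or WT libraries (adjusted p 0.0651 to 0.185), and that in KO2 without KO2 replicate 1 (0.0649). In KO1 it was also lost with a replicate block (0.0524), median-ratio scaling (0.0772) or edgeR (0.0630). The call of Mmp2 was lost without any 1 of 7 libraries, KO1 replicates 1, 2 and 3, KO2 replicates 1 and 2 and WT replicates 2 and 3 (0.0501 to 0.230), and that of Mmp14 without KO2 replicate 3 or WT replicate 2 (0.0556 to 0.0799). Mmp2 was also not called without the filter on low values (0.0593), with quantile normalisation (0.0797), median-ratio scaling (0.0589), edgeR (0.0721) or DESeq2 (0.100), or with only KO2 and WT in the fit (0.0599).

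**Figure D5:**
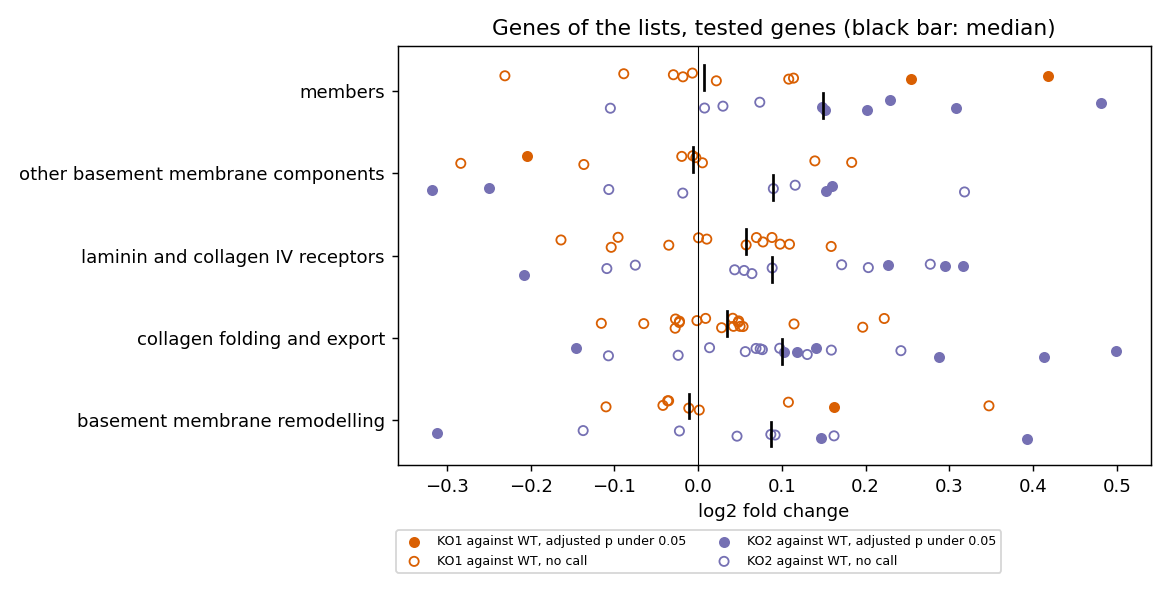
Log2 fold change (x axis) of each tested gene of the 5 lists in KO1 against WT and in KO2 against WT; filled points have an adjusted p under 0.05 and black bars are list medians. Most filled points are in KO2, on both sides of 0 in each list but the 10 genes themselves, shown as members.

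Markers of cells that make much basement membrane were read beside these results. Of 19 markers of primitive and parietal endoderm other than matrix genes, 8 are not in the table, among them the defining regulators Gata6, Sox17, Sox7 and Foxa2, and 7 had a mean value under 10. The summed level of the 11 in the table ranged over 834 to 874 in KO1 and 844 to 920 in KO2, against 716 to 793 in WT, and most of it was Apoe. Apoe was higher in both lines (0.24 ± 0.04 in KO1, adjusted p = 7.46e-04, and 0.27 ± 0.04 in KO2, adjusted p = 8.88e-06). Gata4, a regulator of primitive endoderm, averaged 20.2 ± 0.306 in KO2 and 13.4 ± 0.746 in KO1, against 12.6 ± 1.49 in WT, and was called in KO2 (0.64 ± 0.13, adjusted p = 3.34e-04). The other 2 tested markers, Lrp2 (0.06 ± 0.06 in KO2, adjusted p = 0.532) and Cited1 (0.12 ± 0.14, adjusted p = 0.587), were not called. The share of all tested genes called higher was 0.830% in KO1 and 11.0% in KO2. Of the 7 markers with low values, which were not tested, 3 had a higher mean in KO2 than in WT and 4 a lower one. Dab2 had 3.43, 2.72 and 4.11 in KO2 and 3.84, 3.99 and 6.03 in KO1, against 5.07, 6.51 and 6.10 in WT, so KO2 lay below WT without overlap. Hnf4a had 14.8, 11.4 and 8.84 in KO2 and 10.1, 8.93 and 10.4 in KO1, against 7.46, 6.75 and 7.63 in WT, above it without overlap. Pdgfra averaged 1.18 in KO2 and 0.727 in KO1, against 1.94 in WT. These 3 are named after their values were seen. The part of such cells in the results was not tested.

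Of 16 markers of fibroblasts, which serve as feeder cells for ES cells, 9 are not in the table and 4 had a mean value under 10, Col1a1 and Col1a2 among them. Their summed level was 124 to 129 in KO1 and 159 to 162 in KO2, against 119.8 to 124 in WT, so KO2 stood above both other groups. All 3 tested markers were called higher in KO2: Pdgfrb (0.62 ± 0.12, adjusted p = 1.65e-04), Fbln2 (0.61 ± 0.12, adjusted p = 2.28e-04) and Col5a1 (0.33 ± 0.07, adjusted p = 2.78e-04). In KO1, 0 of the 3 were called. Beside these, 11.0% of all tested genes were called higher in KO2, and 1.06% were called in KO1. Pdgfrb averaged 18.4 in KO1, against 14.5 in WT, and Fbln2 20.3 against 14.9. Both stood wholly above WT in KO1, as did 13.0% of all tested genes. Col5a1 averaged 72.8 in KO1, against 77.5 in WT, and was the only 1 of the 3 called in KO2 against KO1. In the mean contrast 2 of the 3 were called higher, beside 6.16% of all tested genes. The 4 markers with low values, which were not tested, went both ways in KO2, 2 with a higher mean than in WT and 2 with a lower one. Col1a2 had 2.95, 2.96 and 3.495 in KO2 and 4.23, 4.94 and 4.69 in KO1, against 3.52, 4.30 and 3.99 in WT, so KO2 lay below WT without overlap. Col1a1 averaged 1.60 in KO2 and 0.998 in KO1, against 1.94 in WT, while Thy1 averaged 10.7 in KO2 and 7.56 in KO1, against 7.22 in WT. Their part in the KO2 values of Col4a2 and the nidogens was not tested.

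The label of ES cells was checked with 13 markers, which were all tested, and their summed level was 15653 to 15885 in KO1 and 15970 to 16487 in KO2, against 15025 to 15548 in WT. In KO1 1 was called higher and 0 lower, and in KO2 3 higher and 2 lower. For all tested genes, the shares were 0.830% higher and 0.234% lower in KO1, and 11.0% higher and 7.51% lower in KO2. Tdgf1 (0.39 ± 0.04, adjusted p = 5.49e-10), Dppa5a (0.26 ± 0.04, adjusted p = 1.38e-07) and Fgf4 (0.26 ± 0.04, adjusted p = 5.28e-06) were higher in KO2, and Zfp42 was lower (−0.17 ± 0.04, adjusted p = 5.10e-04).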

How the data were processed

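Poly-A RNA of 9 mouse ES cell samples was sequenced with a stranded kit as paired reads of 50 bases, per the labels' protocols. HISAT2, DESeq2 and the build GRCm38 are named in the submitters' processing notes; their versions, and the annotation, counting tool and gene filter, were not given in the sources used here. What the authors deposited is a signal for each gene in each library: read counts after their scaling. All values (100.0% per library) were whole multiples of 1 step, within 0.05 reads, so reads were recovered by division. The plan named limma for values scaled by the authors and a count test for raw counts. As the deposited values were scaled, the main test was limma 3.58.1 in R 4.3.3 on log2(value + 1). It used a mean per group, a variance trend and robust moderation, for the 10238 genes whose mean value was 10 or more. Contrasts were KO1 against WT, KO2 against WT, their mean against WT, and KO2 against KO1. edgeR 4.0.16 and DESeq2 1.42.0 on the recovered reads, pseudocounts of 0.5 and 5, no filter, 2 other scalings, a replicate block, smaller fits and leaving out each library were alternatives. On simulated data for 10238 genes, the calls recovered 86% of 1.25-fold changes in KO1 against WT and 86% in KO2 against WT. False calls numbered 6 in KO1 against WT and 11 in KO2 against WT. Recovery of changes under 1.25-fold was not tested.

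The 10 genes and the lists were chosen with earlier results of these data known. Named are the 10 genes, Kif2a, of each list up to 4 genes with the smallest adjusted p in KO2 or the mean contrast, and the 5 genes nearest in pattern. Positions and lengths are from GENCODE for GRCm38, and promoters from RefSeq (GRCm38.p6).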

Additional observations from a re-analysis of the deposited data

Results flagged for a closer look

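The knockout lines differed from each other in 18 of the named genes, by the direct limma test of KO2 against KO1. Of all tested genes, 9.92% were called in this comparison. Most named genes outside the 10 were picked by a small adjusted p in KO2 or the mean contrast, from the same KO2 libraries. The 18 therefore give no rate at which the lines differ. Among the basement membrane genes, the log2 difference was 0.30 for Col4a1, 0.57 for Col4a2 and 0.17 for Nid2, all higher in KO2. Among other matrix genes it was 0.17 for Hspg2, 0.19 for Col18a1 and −0.24 for Smoc1, and among receptors 0.14 for Itga6, 0.15 for Dag1 and 0.22 for Sdc4. Among collagen folding genes it was 0.22 for P4ha1, 0.45 for P4ha2 and 0.25 for Plod1, and for the protease gene Mmp14 it was −0.31. Among markers it was 0.55 for Gata4, 0.42 for Col5a1, 0.12 for Dppa5a, 0.30 for Tdgf1 and 0.13 for Fgf4.

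Of these 18 calls, 7 were kept whichever library was left out (Col4a1, Col4a2, Nid2, Sdc4, Gata4, Col5a1 and Tdgf1), and 11 were lost without at least 1 library. The libraries were KO1 replicate 1 or KO2 replicate 2 for Col18a1 (adjusted p up to 0.108), KO1 replicate 1, KO1 replicate 2 or KO2 replicate 1 for Dag1 (0.0854), and KO1 replicate 1, KO2 replicate 1 or KO2 replicate 2 for Plod1 (0.0774). They were KO1 replicates 1 and 2 and KO2 replicates 1 and 2 for Hspg2 (0.119), KO1 replicate 3 or KO2 replicate 1 for P4ha2 (0.195), and KO2 replicate 3 for P4ha1 (0.0660). Any 1 KO1 library or KO2 replicate 3 ended the calls of Fgf4 (0.160), Mmp14 (0.0759), Dppa5a (0.114, or KO2 replicate 2) and Smoc1 (0.175, or KO2 replicate 1), and any 1 library but WT replicate 2 that of Itga6 (0.162). The call of Itga6 was also lost with a replicate block (0.0681) and without the filter on low values (0.0682), and that of Smoc1 with DESeq2 (0.0636). Each line is 1 clone, so these are differences between 2 clones.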

How the results depend on the processing

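Over the alternatives, 682 of the 720 values for the 10 genes kept their direction and their side of the threshold, 26 uncalled values changed sign, 7 gained a call, 5 lost one and 0 called values reversed. With the knockout libraries pooled as 1 group, 2 of the 10 genes were called (Lama1 and Lamb1) and 216 genes in all, against 4 and 931 with a mean per line. Leaving out 1 library gave 50 to 166 calls over all genes in KO1 against WT (109 with all), 511 to 1063 in the mean contrast and 521 to 1207 in KO2 against KO1 (1016 with all). The lowest counts came without KO1 replicate 2, WT replicate 2 and KO1 replicate 2; KO1 also had 54 without KO1 replicate 1, 65 without WT replicate 3 and 166 without KO2 replicate 3, the mean contrast 581 without WT replicate 3, and KO2 against KO1 618 without KO1 replicate 3. The log2 ratio of Lama1 to Lama5 ran from 0.28 to 0.34 and that of Lamb1 to Lamb2 from 0.17 to 0.23, with adjusted p of 0.0536 to 0.107 by the exact permutation test, since 8 libraries allow fewer assignments. With a replicate block these ratios were 0.31 and 0.20 (exact permutation, adjusted p = 0.111 each; the 27 assignments allow no p below 0.0741). With a pseudocount of 5, Col4a1 to Col4a2 was −0.25 and passed (exact permutation, adjusted p = 0.0476). Dppa5a in KO2 against KO1 was 0.00 with quantile normalisation. Replicate numbers gave no sign of pairing. Same-numbered libraries of different groups had correlations of −0.129 to 0.027, and differently numbered ones −0.092 to 0.166. These are correlations of deviations from group means, and they cannot settle whether libraries were paired. With the replicate block, 89, 1719, 819 and 867 genes were called in the 4 comparisons, and 2, 6, 4 and 3 of the 10 genes, as without it; among other named genes it ended the calls of Ctsb in KO1, Crtap in KO2 and Itga6 in KO2 against KO1. Splits of calls between higher and lower were 65 to 38, 929 to 916 and 482 to 421 with quantile normalisation, 69 to 48, 950 to 932 and 462 to 463 with edgeR, and 64 to 43, 868 to 831 and 427 to 399 with DESeq2, in KO1, KO2 and the mean contrast. Depth limits Col4a2 most.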
